A study of Cavia porcellus with 24 samples.

Results

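The CpGs described here were partly methylated (mosaic) in the hippocampus of control guinea pigs and almost fully methylated in their blood. A CpG was eligible when its cytosines on both strands were listed in both tissues with 20 or more reads in each of the 4 pools of reads, and it was a member when its minus-strand level in the controls was 30 to 65% in the hippocampus and at least 90% in the blood. Of 463059 eligible CpGs, 10631 (2.30%) were members. The minus strand alone chose the members, and the levels and differences below were read on the plus strand, which is covered by other reads of the same animals.

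Hippocampus (HPC) and whole blood (BL) came from 12 female guinea pigs at postnatal day 14, 1 per litter. For 6 of them the mother had been injected in pregnancy with betamethasone, a synthetic glucocorticoid (sGC), at 1 mg/kg, and for the other 6 with saline (Con). The injections were given in 3 courses, at gestational day 40/41, 50/51 and 60/61. Methylation was measured by reduced representation bisulfite sequencing (RRBS), in which DNA cut at MspI sites is treated so that unmethylated cytosines read as thymine and methylated ones stay cytosine. The tables sum the reads of the 6 animals of a group, so each CpG has 1 level per group and tissue, the spread between animals is not known, and every test below compares pools of reads rather than animals. At the plus strand of the members, the median coverage was 92 reads in Con HPC, 102 in sGC HPC, 78 in Con BL and 102 in sGC BL.

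A cytosine in 1 DNA molecule is either methylated or not, so an intermediate level means that some molecules carried the mark and others did not. Such molecules can come from different cell types, from the 2 alleles of a cell or from different animals. The hippocampus holds neurons, astrocytes, oligodendrocytes, microglia and vessel cells, whereas the nucleated cells of mammalian blood are leukocytes. In these pools a change in the share of cells of a type and a change in the level within cells cannot be told apart, and cell types were not measured.

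Full methylation in one tissue with a mosaic level in the other was seen mostly in 1 direction. Of the 181689 eligible CpGs at 90% or more in Con blood on the minus strand, 5.85% (the members) were at 30 to 65% in Con HPC, 32.0% were between 65 and 90% and 61.1% were at 90% or more. At the other end, 170 of them were at 10% or less in Con HPC. Of the 128309 CpGs at 90% or more in Con HPC, 1291 (1.01%) were at 30 to 65% in Con blood. These 1291 are called the reverse set below. These counts describe how the rule sorted the CpGs and were not tested.

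On the plus strand, the members stayed apart in the 2 tissues. The median level was 53.7% in Con HPC (quartiles 43.6 and 62.9%), 58.6% in sGC HPC (48.8 and 67.3%), 91.8% in Con BL (88.2 and 94.9%) and 95.05% in sGC BL (92.3 and 97.0%). Of the 10631 members, 7939 (74.7%) were again within 30 to 65% on the plus strand of Con HPC, 551 were below that range and 2141 above it. In Con BL, 6856 (64.5%) were again at 90% or more and 286 were below 80%. In the sGC animals, which the rule did not use, 6985 (65.7%) were at 30 to 65% in HPC and 9229 (86.8%) at 90% or more in blood. The standard deviation of the Con HPC levels over members was 13.75 points, against 5.403 points from counting of reads alone. The rule admits a range of levels and so gives a spread by itself. On the minus strand, where it acted, the 2 values were 9.88 and 5.65 points.

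**Figure D1:**
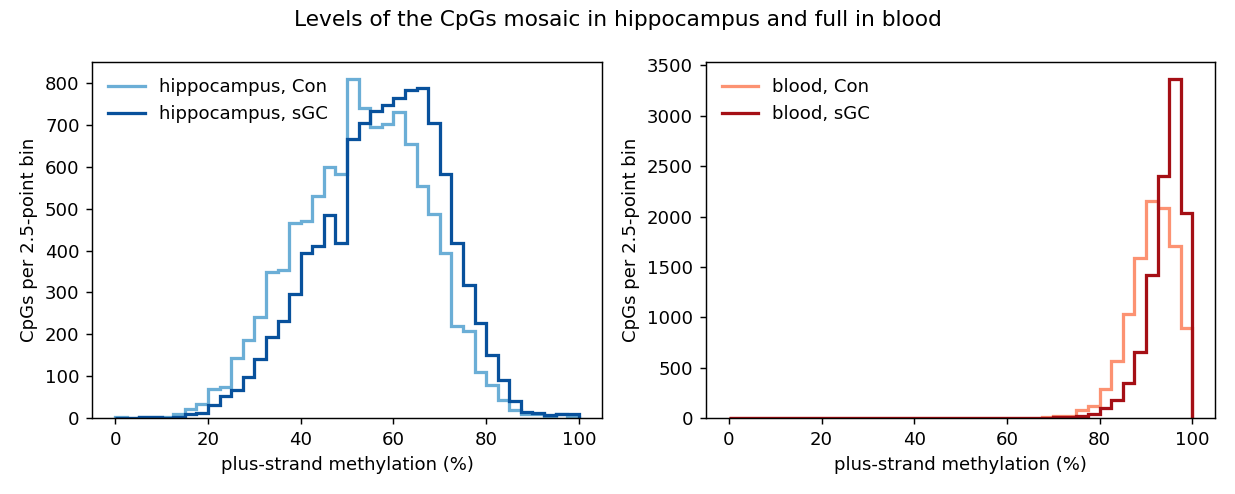
Number of members per 2.5-point bin of plus-strand methylation (%), in HPC (left) and blood (right), with 1 line per pool of 6 animals. In HPC the 2 lines spread over the middle of the scale with medians of 53.7% (Con) and 58.6% (sGC), and in blood they crowd at the top with medians of 91.8 and 95.05%, the sGC line lying to the right in both.

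Values at the limits of the rule show how narrow its edges were. At DS563164.1:63447 the minus-strand Con HPC level was 30%, just inside, and the plus-strand level 29.4%. At DS562855.1:2290655 the minus-strand level was 29.9%, just outside, and the plus-strand level 36.0%. At the upper limit, DS562887.1:21728789 was inside at 65% on the minus strand and had 76.5% on the plus strand. At DS563015.1:1780928 the minus-strand blood level was 90%, just inside, and at DS563019.1:1485390 it was 89.96%, just outside, with plus-strand Con BL levels of 85.4 and 86.5%.

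The difference between tissues was tested in the sGC pools, which were not used to choose the CpGs. Blood was higher than HPC at 10018 of 10631 members (94.2%) by a two-sided Fisher's exact test per cytosine, with Benjamini-Hochberg adjustment over all cytosines listed in both tissues and with calls made at an adjusted p below 0.05 where the pools differed by 5 percentage points or more. The same rule called 19.3% of all eligible CpGs higher in blood and 6.37% lower. As a stricter setting, chi-squared statistics of the same counts were divided by their inflation over all cytosines, a factor of 3.42 in this comparison. By these, 6595 members were called. No member was called lower in blood by Fisher's exact test, and 2 were lower at an unadjusted p below 0.05. Among the members called higher, the median difference was 36.8 points, and 9597 of them were called on both strands. Over all members the median gap of blood less HPC was 35.7 points in the sGC pools and 37.4 points in the Con pools. The gap was at least 20 points at 9474 members (89.1%) in the sGC pools.

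In the hippocampus, the members were on the whole more methylated in the sGC pool than in the Con pool. The mean level was 53.1% in Con and 57.6% in sGC, a mean difference of 4.46 points (median 4.67 points), and 7682 members (72.3%) were higher with sGC and 2923 lower. Over all eligible CpGs the mean difference in HPC was 1.08 points (median 0.65) and 57.1% were higher. A difference of 10 points or more was seen upward at 2592 members and downward at 449. Of all 463059 eligible CpGs, 28467 differed by that much upward and 11369 downward. The standard deviation of the differences over members was 8.29 points, of which read counting alone would give 7.47.

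In blood, where the members had little room to rise, they were also higher in the sGC pool. The mean level was 91.2% in Con and 94.1% in sGC, a mean difference of 2.93 points (median 2.85), and 7762 members (73.0%) were higher with sGC and 2850 lower. Over all eligible CpGs the mean difference in blood was 0.53 points and 53.9% were higher. A difference of 10 points or more was seen upward at 817 members and downward at 89. Of all 463059 eligible CpGs, 19725 differed by that much upward and 13021 downward. On the log odds scale, which allows for the nearness of the blood levels to 100%, the median natural-log odds ratio of sGC against Con was 0.20 in HPC and 0.46 in blood. Over all eligible CpGs these medians were 0.099 and 0.071. No member was called for a difference of this ratio between tissues, as given below.

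The Con animals behind these differences are the ones whose minus-strand reads chose the members, so the differences are given as descriptions beside those of all eligible CpGs. On the minus strand, where the rule itself acted, the median difference was 5.76 points in HPC and 1.06 points in blood. When CpGs were instead chosen by the same limits in the sGC pools, 16194 CpGs were taken, and their median plus-strand difference was 5.70 points in HPC and 4.35 points in blood, again higher with sGC. With a minimum of 95% in Con blood, which left 3229 CpGs, the median difference was 3.73 points in HPC and 1.805 points in blood, and 67.2 and 66.7% were higher with sGC. With the strands exchanged, the medians were 4.45 points in HPC and 2.83 points in blood.

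Both tissues were higher with sGC at 5775 members (54.3%), HPC alone at 1893, blood alone at 1973, and both were lower at 945 (8.89%). The product of the separate shares of the tissues is 52.8%, close to the 54.3% seen. Among all eligible CpGs, 32.3% were higher in both, and the product is 30.8%. Over the members, the differences in HPC and blood had a Pearson correlation of 0.13 across CpGs, against 0.17 over all eligible CpGs, which come from the same animals in both tissues. The differences on the 2 strands of a member correlated at 0.065 in HPC and 0.12 in blood, again across CpGs of the same animals. Over all eligible CpGs these were 0.17 and 0.23. The rule limits the minus-strand Con level of the members, which affects this correlation, so nothing is read from the gap.

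**Figure D2:**
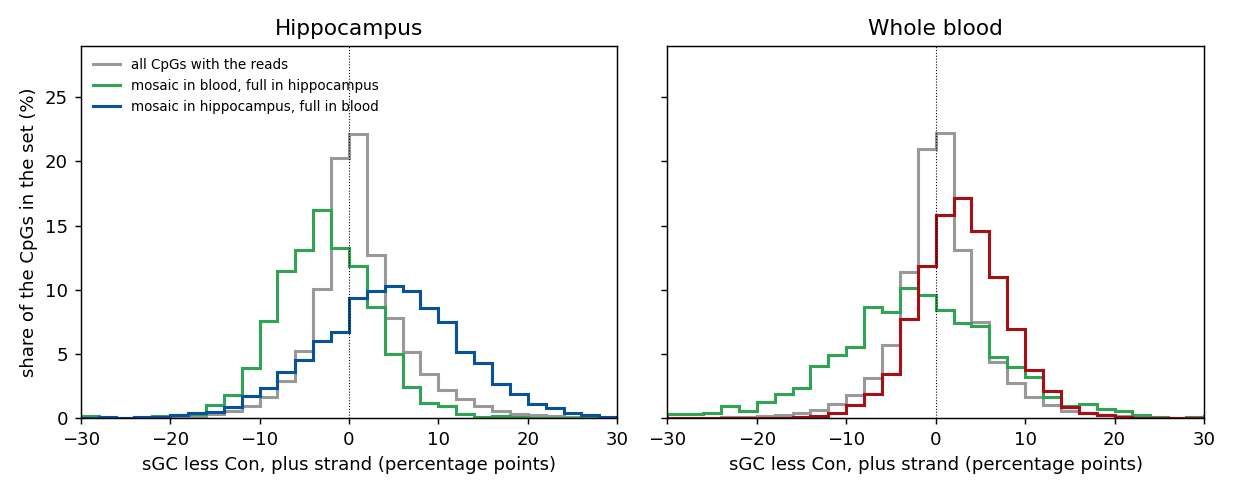
Share of CpGs (%) by the plus-strand difference of sGC less Con (percentage points), in HPC (left) and blood (right), for all eligible CpGs (grey), the reverse set (green) and the members (blue in HPC, red in blood). Most members lie to the right of 0, with medians of 4.67 and 2.85 points, and most of the reverse set to the left, with medians of -2.78 and -1.96 points.

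The reverse set, mosaic in blood and full in HPC, differed in the opposite direction in both tissues. Its median level was 91.5% in Con HPC and 88.7% in sGC HPC, a median difference of -2.78 points, and 69.3% of its CpGs were lower with sGC. In blood its median was 54.3% in Con and 52.3% in sGC, a median difference of -1.96 points, and 59.4% were lower. Both tissues were lower with sGC at 560 of its CpGs (43.4%). At the 15827 CpGs that were at 30 to 65% in both tissues, the median difference was 1.59 points in HPC and 0.03 points in blood. These sets were chosen with the same Con pools, so their differences are set side by side without a test.

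Across all eligible CpGs, the difference of sGC less Con followed the gap of blood less HPC in the Con pools, taken on the minus strand. Where blood was 60 points or more above HPC (6415 CpGs), the mean plus-strand difference was 5.41 points in HPC and 5.44 points in blood. Where blood was 20 to 40 points above (36601 CpGs), it was 3.72 and 2.51 points. Where the tissues lay within 10 points of each other (319756 CpGs), it was 0.54 and 0.17 points. Where blood was 60 points or more below HPC (2425 CpGs), it was -4.06 and -4.84 points. The order was similar when the gap was taken from the sGC pools, with -3.81 and -5.07 points at the lowest gap and 5.35 and 6.12 points at the highest. The cell makeup of the pools was not measured, and its part in these differences was not tested.

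**Figure D3:**
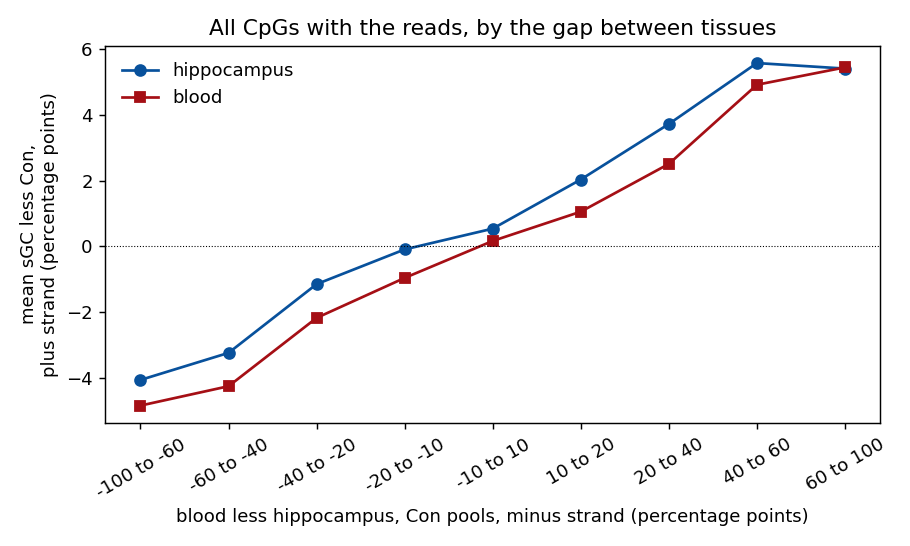
Mean plus-strand difference of sGC less Con (percentage points) for all eligible CpGs in 9 bins of the gap of blood less HPC in the Con pools on the minus strand (percentage points), with HPC as circles and blood as squares. Both lines run from below 0 where blood is the lower tissue (-4.06 and -4.84 points) to above 0 where it is the higher one (5.41 and 5.44 points).

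The median difference was above 0 in both tissues at every level of mosaicism. At members with a minus-strand Con HPC level of 30 to 40% (1775 CpGs) the median difference was 5.01 points in HPC and 3.69 points in blood. At 60 to 65% (2776 CpGs) it was 3.93 points in HPC and 2.32 points in blood. The share of members higher with sGC lay between 70.0 and 73.5% in HPC and between 69.3 and 76.2% in blood over the 4 bins of Con HPC level.

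Few single members passed the test of sGC against Con. In HPC, 24 members (0.226%) were hypermethylated with sGC by the two-sided Fisher's exact test, adjusted over all cytosines of the tissue, against 0.0989% of all eligible CpGs. None was hypomethylated by that test, against 0.0473% of all eligible CpGs, and 74 were lower and 1257 higher at an unadjusted p below 0.05. In blood, 118 members (1.11%) were hypermethylated, against 0.285% of all eligible CpGs, and 1 was hypomethylated, against 0.178%. None of these members was called by chi-squared statistics divided by their inflation over all cytosines of the tissue, 1.77 in HPC and 1.74 in blood. The adjusted p-values of single members below thus hold only for the reads as summed. At an unadjusted p below 0.05, 1752 members were higher and 52 lower in blood. The shares of all eligible CpGs at that unadjusted p are not given here for either tissue, so nothing is read from these counts. The Con pools of this contrast had been used by the rule on the other strand, and nothing is read from the gap to the background.

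The called members had more reads than the others, with a median of 613 plus-strand reads over the 4 pools for those called in HPC and 608 for those called higher in blood, against 373 for all members. Those called in HPC differed by 16.4 to 34.6 points (median 23.6). None of the 24 was called on the minus strand too, where 22 were higher with sGC with a median difference of 6.71 points. The called members of both tissues were picked by the plus-strand test, and the rule limited their minus-strand Con level. How far this choice bears on the minus-strand differences was not tested, and nothing is read from them. The CpGs at 30 to 65% in both tissues were limited and picked in the same way. Of these, 23 of 50 called higher in HPC were called on both strands, as were 37 of 69 in blood. Their median plus-strand differences were larger, at 30.4 and 27.9 points. In the reverse set, 2 of 6 called lower in HPC and 0 of 3 in blood were called on both strands. In blood the 24 members called in HPC had a median difference of 6.13 points, and 23 were higher with sGC. The 118 called higher in blood differed by 7.27 to 28.8 points (median 12.9), with none called on both strands, 94 higher on the minus strand (median 3.56 points) and 100 higher in HPC (median 7.25 points).

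The smallest p among the members in HPC was at DS562976.1:2608614. Its level was 23.4% (95% Wilson interval 19.0 to 28.5%) in 303 reads of Con HPC and 42.0% (36.6 to 47.6%) in 305 reads of sGC HPC, with an adjusted p of 0.00212 by Fisher's exact test. In blood it was 89.4% in Con and 96.8% in sGC, and the intervals of the 2 HPC pools did not overlap. On the minus strand its HPC difference was 14.2 points in the same direction.

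The next members in HPC showed a larger rise on the plus strand, by which they were picked, than on the minus strand. DS562908.1:8933638 was at 49.2% in Con HPC and 75.1% in sGC HPC (adjusted p = 0.00551, Fisher's exact test), and on the minus strand at 49.5 and 50.9%. DS562855.1:86705432 was at 28.7% in Con HPC and 52.3% in sGC HPC (adjusted p = 0.00651, Fisher's exact test), with 2.73 points on the minus strand. DS563023.1:5330 was at 21.5% in Con HPC and 50.8% in sGC HPC (adjusted p = 0.00684, Fisher's exact test), with 4.19 points on the minus strand. DS562870.1:20488787 was at 44.5 and 68.0%, and DS562898.1:3399655 at 34.6 and 61.2%. At DS562959.1:2802499 the strands were closer, with 47.3% in Con HPC and 71.5% in sGC HPC on the plus strand (adjusted p = 0.0147, Fisher's exact test) and a difference of 18.3 points on the minus strand.

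In blood, the smallest p was at DS562873.1:39676677. Its level was 78.6% (71.8 to 84.1%) in 168 reads of Con BL and 97.2% (93.7 to 98.8%) in 181 reads of sGC BL (adjusted p = 3.97e-05, Fisher's exact test). In HPC it was 52.6% in Con and 51.02% in sGC, and on the minus strand of blood it differed by -0.97 points. DS562860.1:16356933 was at 83.6% in Con BL and 99.4% in sGC BL (adjusted p = 0.000198, Fisher's exact test). DS562856.1:67578143 was at 84.7% in Con BL and 98.97% in sGC BL (adjusted p = 0.000249, Fisher's exact test), with 30.3 and 45.3% in HPC, and it was higher with sGC on the minus strand of both tissues, by 14.96 points in HPC and 6.47 points in blood. In these members the sGC level in blood was close to full, and the Con level on the plus strand was below the 90% that the minus strand had passed. Picking members by a rise on the plus strand favors a low plus-strand Con level, so nothing is read from this.

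DS563138.1:431839 was the clearest case of unequal strands among them. Its plus-strand blood level was 59.8% in 102 reads of Con and 87.5% in 160 reads of sGC (adjusted p = 0.000489, Fisher's exact test), whereas its minus-strand blood level was 100% in 32 reads of Con and 91.7% in 24 reads of sGC. DS562882.1:8817795 was at 79.3% in Con BL and 97.0% in sGC BL, with 36.6 and 36.5% in HPC. DS562896.1:3196207 was at 78.9 and 95.1% in blood, DS562885.1:13252742 at 82.5 and 98.7%, and DS562880.1:26432729 at 79.2 and 99.05%.

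A single member was called in both tissues. DS563192.1:150860 was at 31.6% in Con HPC and 54.7% in sGC HPC (adjusted p = 0.0330, Fisher's exact test), and at 86.2% in Con BL and 98.7% in sGC BL (adjusted p = 0.0189, Fisher's exact test). On the minus strand it differed by 6.36 points in HPC and 8.22 points in blood. The single member called lower in blood was DS562876.1:21679593, at 100% in 50 reads of Con BL and 67.3% in 49 reads of sGC BL (adjusted p = 0.00244, Fisher's exact test). It was at 73.9% in Con HPC and 66.7% in sGC HPC on the plus strand, so that its levels in the sGC pools of the 2 tissues were close, and its minus-strand difference in blood was -3.71 points.

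Whether the change with sGC differed between blood and HPC was tested on the difference of the log odds ratios. No member was called in either direction after Benjamini-Hochberg adjustment, against 0.000648% of all eligible CpGs with a larger log odds ratio in blood and 0.0147% with a smaller one. At an unadjusted p below 0.05, 773 members had a larger log odds ratio in blood and 95 a smaller one. At the 15827 CpGs at 30 to 65% in both tissues, 427 had a larger one and 871 a smaller one. In the reverse set the counts were 105 and 20. The share of all eligible CpGs at that p is not given here, so nothing is read from these counts.

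The member with the most reads, DS565522.1:4897, had 4501, 3966, 3976 and 3850 plus-strand reads in Con HPC, sGC HPC, Con BL and sGC BL. Its level was 45.7% (44.2 to 47.2%) in Con HPC, 50.5% (48.9 to 52.0%) in sGC HPC, 82.7% (81.5 to 83.8%) in Con BL and 87.1% (86.1 to 88.2%) in sGC BL. It passed the p threshold in both tissues (adjusted p = 0.0152 in HPC and 5.81e-05 in blood, Fisher's exact test) but its differences of 4.75 and 4.45 points were below the 5 points required of a call. Its minus strand had 36 to 64 reads per pool and no difference in that direction, at -0.63 points in HPC and -9.17 points in blood. DS562868.1:48350936, with 454 to 606 plus-strand reads per pool, was at 64.5 and 70.1% in Con and sGC HPC and 89.1 and 94.2% in blood.

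DS563405.1:67633 was at 70.7% in Con HPC and 72.7% in sGC HPC, and at 89.4% in Con BL and 86.0% in sGC BL. DS563099.1:103262 was at 54.6 and 55.5% in HPC and at 81.6 and 87.4% in blood. DS563065.1:79079 was at 63.8 and 72.5% in HPC and at 88.4 and 88.2% in blood. Of the 5 deepest members, all were higher with sGC in HPC and 3 in blood, and none was called. Among the 3245 members with 100 or more plus-strand reads in every pool, an addition made after the data were seen, 84.2% were higher with sGC in HPC and 87.7% in blood, with median differences of 6.04 and 4.35 points. Deeper coverage lowers counting error, and the shares over all eligible CpGs of that depth are not given here. Nothing is therefore read from the rise in these shares.

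Around the members, the mean HPC level of neighboring CpGs was intermediate and rose with distance. The plus-strand levels of the neighbors in a distance range were averaged for each member, and the median of these means is given. Such a mean can also come from a mix of methylated and unmethylated CpGs, so it does not show that single neighbors were mosaic. At 1 to 50 bp, with other members left out, it was 54.7% in Con HPC and 90.5% in Con BL. In the sGC pools it was 58.8% in HPC and 93.7% in blood. From over 200 to 500 bp the medians were 67.4% in Con HPC and 88.8% in Con BL, and from over 1000 to 2000 bp 79.5 and 88.8%. Blood thus stayed near its level throughout while HPC rose towards it. Around all eligible CpGs, the medians at 1 to 50 bp were 67.7% in Con HPC and 82.0% in Con BL. They were 45.8 and 61.4% from over 200 to 500 bp, and 72.0 and 82.5% from over 1000 to 2000 bp. A rise in HPC from over 200 bp outward was thus not particular to the members. Of the pairs of a member and an eligible CpG 1 to 50 bp away, 37.2% had a member as the neighbor. Among such pairs around any eligible CpG it was 2.12%. A CpG near several members is counted once for each of them.

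**Figure D4:**
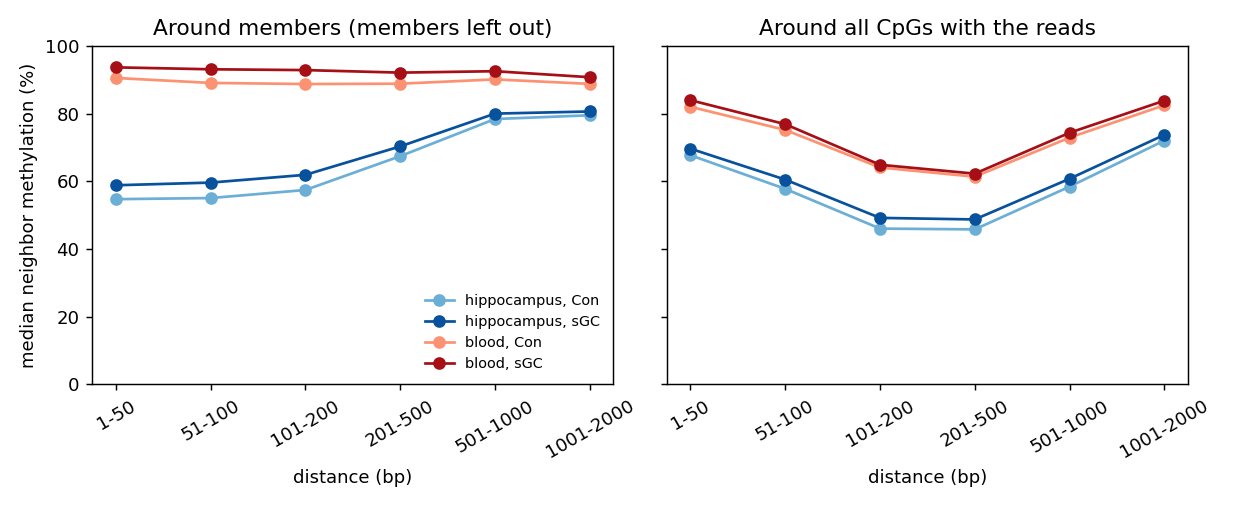
Plus-strand methylation (%) of neighboring eligible CpGs by distance (bp) from a member, with other members left out (left), and from any eligible CpG (right). The neighbors of a CpG in a distance range were averaged, and the points give the median of these means in the 4 pools. Around members the HPC lines climb with distance, from 54.7 to 79.5% in Con, and the blood lines stay high, from 90.5 to 88.8% in Con.

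The flanks of the members were described in the sGC pools, without a test. Of 3029 members with eligible CpGs from over 500 to 2000 bp away on both sides, 1137 (37.5%) had a mean flank level of at least 75% on both sides in sGC HPC, 1294 (42.7%) on 1 side and 598 (19.7%) on neither. In sGC blood, 2067 (68.2%) had both sides at that level. Of 122782 eligible CpGs with both flanks, 33.0% had both sides at that level in sGC HPC and 45.0% in sGC blood.

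Neighboring members resembled each other. The sGC HPC levels of adjacent members at most 50 bp apart (3013 pairs, often covered by the same reads) correlated at 0.53, those 51 to 200 bp apart (696 pairs) at 0.31, and those over 200 and up to 2000 bp apart (673 pairs) at 0.095. The differences of sGC less Con in HPC of these pairs correlated at 0.38, 0.12 and 0.033, and those in blood at 0.31, 0.11 and 0.063. These correlations across CpGs are descriptions, since neighbors share reads and animals.

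The members sat in slightly sparser CpG sequence than the eligible CpGs as a whole. A member had a median of 6 other listed CpGs within 100 bp (quartiles 4 and 9), against 7 (4 and 11) for all eligible CpGs. Members made up 2.92% of the CpGs with 3 to 5 others nearby and 0.781% of those with 21 or more. Taken as a share of the CpGs full in Con blood, however, they made up 5.95% and 7.49% of these.

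The 10631 members fell into 6922 clusters when members up to 200 bp apart were joined, of which 4884 held 1 member and 196 held 5 or more. They lay on 263 of the 832 scaffolds with an eligible CpG. On the 40 scaffolds with the most eligible CpGs, the share of members ranged from 1.12% on DS562866.1 to 4.73% on DS563015.1 (median 2.29%). The median difference of sGC less Con was above 0 on all 40 in both tissues, from 1.87 to 8.13 points in HPC and from 1.16 to 4.37 points in blood. By cluster, the mean difference was above 0 in 5136 of 6922 clusters (74.2%) in HPC, in 5219 (75.4%) in blood and in 3963 (57.3%) in both.

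The cluster with the most members was at DS562856.1:73485565-73486313, where 22 of 32 eligible CpGs within 748 bp were members. Summed over the plus strand of its members, so that a read adds 1 reading for every member on it, 50.4% of readings were methylated in Con HPC, 48.8% in sGC HPC, 93.1% in Con BL and 96.9% in sGC BL. Its HPC levels ranged from 33.3 to 72.8% over members in Con and from 31.8 to 63.2% in sGC. Of the 22 members, 10 were higher with sGC in HPC and 16 in blood, and none was called in either tissue. Unlike the members as a whole, this cluster was not higher with sGC in HPC.

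**Figure D5:**
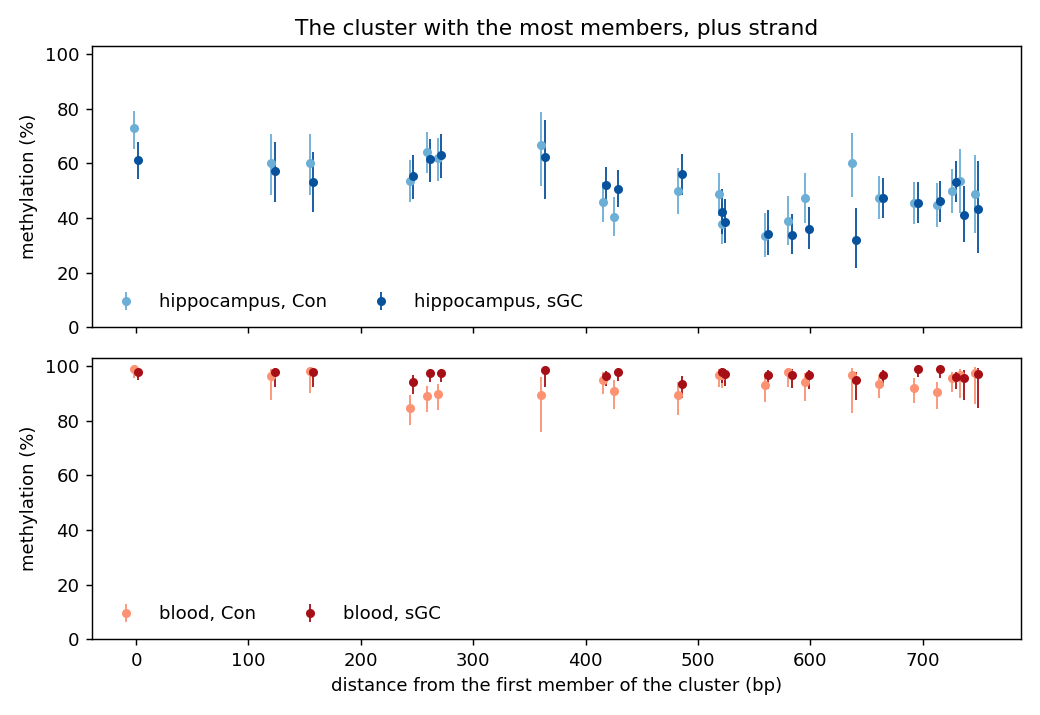
Plus-strand methylation (%) of the 22 members of the largest cluster by distance from its first member (bp), in HPC (top) and blood (bottom), for Con and sGC pools, with bars giving the 95% Wilson interval of the reads. The HPC points lie between 31.8 and 72.8% and the blood points at or above 84.7%, with no overlap of points between tissues. Some bars overlap, as at 362 bp, where the Con interval reaches 79.0% in HPC and goes down to 75.9% in blood.

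In the next clusters the summed readings were also higher in blood, but in some of them the levels of single members overlapped between tissues. At DS562885.1:2167912-2168059 (15 members), 39.7% of readings were methylated in Con HPC, 50.4% in sGC HPC, 92.0% in Con BL and 95.8% in sGC BL, and 13 members were higher with sGC in each tissue. At DS562864.1:47778923-47779194 (17 members), the values were 59.4, 65.1, 90.2 and 91.0% in the same order, with 12 members higher in HPC and 10 in blood. In the sGC pools its HPC levels reached 76.9% and its blood levels went down to 72.9%. At DS563071.1:6719-6912, 15 of the 17 eligible CpGs were members, with 40.6 and 44.3% in HPC and 92.3 and 94.6% in blood. Its HPC levels ranged from 22.0 to 91.8% in Con and from 31.7 to 95.8% in sGC, and its blood levels from 83.6% in Con and 86.3% in sGC upward.

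There were 6 clusters with 10 members, of which the 4 with the most plus-strand reads are given. Among these, DS562995.1:340787-341066 was at 48.9 and 56.4% in Con and sGC HPC and 92.8 and 96.9% in blood. DS563175.1:341061-341321 was at 50.2 and 57.7% in HPC and 91.8 and 95.7% in blood. DS562917.1:4520539-4520773 was at 44.1 and 46.6% in HPC and 91.6 and 92.6% in blood. DS564011.1:10837-11154 was at 53.0 and 54.8% in HPC and 91.1 and 96.5% in blood. No member of the 8 clusters given here was called for sGC against Con in either tissue, and members of a cluster share reads.

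Gene names were available only for cytosines listed as differentially methylated in the paper's supplementary tables, 2 of which were held in part. Of 170 genes named there, 32 had a member within 200 bp of a named cytosine, with 64 members in all (0.602% of members). The study chose these cytosines on the same contrast and animals, so the direction of their differences is not independent evidence. The mean difference was above 0 in HPC in 28 of the 32 genes, in blood in 30 and in both in 26, and 1 member was called in each tissue. Whether a member lies in an exon, an intron or outside the gene was not analysed here.

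NFIA and CACHD1, with 6 members each, had the most. NFIA encodes a transcription factor needed for the formation of glia, and 6 members lay near it at DS562857.1:69658667-69927573. Over these, 33.2% of readings were methylated in Con HPC, 41.2% in sGC HPC, 90.8% in Con BL and 96.9% in sGC BL, and all 6 were higher with sGC in both tissues, though none was called. The lowest HPC level was 25.6% in Con and 32.8% in sGC, while no blood level was below 87.4%.

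ROR1, a receptor that binds Wnt ligands, had 5 members at DS562857.1:68143516-68281459, of which 1 was called. The readings there were 45.7% methylated in Con HPC, 63.1% in sGC HPC, 89.9% in Con BL and 95.8% in sGC BL. The called member, at 68143516, was at 35.0% (27.1 to 43.7%) in 123 reads of Con HPC and 61.9% (53.5 to 69.7%) in 134 reads of sGC HPC (adjusted p = 0.0210, Fisher's exact test), with 10.6 points on the minus strand. The other 4, between 68281420 and 68281459, were higher by 10.1 to 17.8 points in HPC and were not called.

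CACHD1, related to the auxiliary subunits of voltage-gated calcium channels, had 6 members at DS562857.1:67800658-67804718. They were at 39.5% in Con HPC and 54.6% in sGC HPC, 93.1% in Con BL and 97.3% in sGC BL, with 6 of 6 higher in HPC and 5 of 6 in blood. On the minus strand, the HPC differences of the same 6 CpGs were smaller, from -5.86 to 5.21 points. MAP3K6, a kinase of the MAP kinase cascades, had 5 members at DS562880.1:8919224-8919512, at 25.9% in Con HPC, 36.3% in sGC HPC, 92.9% in Con BL and 96.2% in sGC BL. All 5 were higher with sGC in both tissues and none was called. On the minus strand, their differences ranged from -4.29 to 13.8 points in HPC and from -4.75 to 5.73 points in blood.

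FAM222A had 4 members within DS562859.1:7901840-7901904, at 47.8% in Con HPC, 59.3% in sGC HPC, 88.1% in Con BL and 96.9% in sGC BL, with all 4 higher in both tissues. On the minus strand, their HPC differences were smaller, from -2.12 to 5.28 points. COL14A1, a fibril-associated collagen, had 3 members at 48.3 and 50.2% in HPC and 91.9 and 95.05% in blood, with 1 of 3 higher in HPC. COL14A1 was the only gene with several members in which fewer were higher than lower with sGC in HPC.

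Among genes with 2 members were several regulators of transcription. CASZ1, a zinc finger factor, was at 44.6 and 53.3% in Con and sGC HPC and 91.4 and 97.1% in blood. FOXP4, a forkhead factor, was at 34.6 and 45.3% in HPC and 94.3 and 97.3% in blood. NACC2, a transcriptional repressor, was at 31.3 and 44.3% in HPC and 81.7 and 95.1% in blood. The summed readings of these 3 genes were higher in the sGC pools of both tissues, and no member near them was called. On the minus strand of HPC, the 2 FOXP4 members differed by -4.33 and 6.64 points, and each CASZ1 and NACC2 member was higher with sGC.

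The other genes with 2 members included neuronal and signalling genes. TNFRSF19, a TNF receptor family member, was at 43.1 and 50% in HPC and 92.9 and 97.9% in blood. NRSN2, a neuronal membrane protein, was at 41.2 and 48.9% in HPC and 88.9 and 96.5% in blood. SLIT1, an axon guidance ligand, was at 70.9 and 71.1% in HPC and 93.0 and 97.7% in blood. Its summed plus-strand HPC level thus lay above the range of the rule. The member at 30757494 was above that range, at 78.9 and 79.2%, and the one at 30757469 within it, at 62.9 and 63.0%. SLC35D1, a nucleotide sugar transporter, was at 40.6 and 48.4% in HPC and 91.9 and 93.3% in blood. RIN2, a Rab5 regulator, was at 56.6 and 60.6% in HPC and 93.3 and 95.1% in blood, and TGFBRAP1 at 50.5 and 54.1% in HPC and 85.3 and 94.0% in blood.

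A single member lay near each of 17 genes, of which 10 are given here, chosen after their values were seen. SH3GL3, the endocytic protein endophilin A3, had the member called in blood, at 86.4% (80.3 to 90.9%) in Con BL and 97.8% (94.9 to 99.04%) in sGC BL (adjusted p = 0.0116, Fisher's exact test) and at 53.5 and 58.4% in HPC. Its minus-strand difference in blood was 1.27 points. GLI2, a transcription factor of hedgehog signalling, was at 28.6% in 28 reads of Con HPC and 50.5% in 93 reads of sGC HPC, and was not called. NCALD, a neuronal calcium sensor, was at 25.6 and 37.5% in HPC and 82.9 and 97.3% in blood, and PEBP4 at 29.6 and 36.5% in HPC and 80.7 and 93.6% in blood. On the minus strand of HPC, NCALD differed by 8.86 points and PEBP4 by -4.29 points.

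Near 4 genes the HPC level was lower in the sGC pool, and none was called. ADAMTSL4 was at 59.2% in Con HPC and 50% in sGC HPC, in 49 and 56 reads. ERAP1, a peptidase that trims antigens, was at 67.7 and 63.9%, LRP12 at 65.8 and 63.7%, and HAPLN1, a link protein of the extracellular matrix, at 49.4 and 48.8%. On the minus strand all 4 were higher with sGC in HPC. In blood, CPN2 was at 96.4% in Con and 94.3% in sGC, and PHLDB1 at 92.5 and 92.3%, the 2 genes with a lower level in sGC blood.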

How the data were processed

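RRBS libraries of hippocampus and whole blood from 24 samples (4 groups of 6) were sequenced as single reads of 75 bp. Reads were trimmed with Trim Galore and a NuGEN script, aligned with Bismark 0.16.0 to cavPor3 and handled with SAMtools 1.7, as the paper's methods and the submitters' processing notes give. The authors deposited 1 table per tissue with the methylated read counts and the coverage (total reads) of every cytosine in each group, added up over its 6 animals, not normalized and with at least 10 reads in every pool. An FDR column of the authors' own comparison (MethPipe, with batch as a covariate) was not used. Positions are as the tables give them, and whether they count from 0 or 1 is not stated. The tables pool the animals, so batch could not be examined.

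A level is methylated over total counts, in percent. Intervals are 95% Wilson intervals of the reads, which cover counting error only. Each cytosine was tested with a two-sided Fisher's exact test and Benjamini-Hochberg adjustment over all cytosines of the table (2869370 in hippocampus, 2927801 in blood, 2564116 listed in both), and was called where the adjusted p was below 0.05 and the levels differed by 5 points or more. Because animals differ, these tests give too many calls. A stricter setting used chi-squared statistics of the same counts, divided by their inflation and adjusted alike. The inflation is the median of the statistics above 0 over all cytosines, divided by the median expected without any difference. The change in blood against hippocampus was tested on the log odds ratios with 0.5 added to each count. The summed coverage was between 269116901 and 323883199 over the 4 pools. The scripts were tested on simulated data.

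The members and lists were chosen with earlier results of these data known. Named CpGs were the 8 clusters with the most members (ties by plus-strand reads), up to 8 called members per tissue with the smallest p, the 5 with the most reads, up to 25 genes within 200 bp of a cytosine named in the supplementary tables, and CpGs at the limits of the rule. Of the 32 gene symbols, 31 were in the RefSeq table of assembly mCavPor4.1, used for symbols only. No genome of the build was used here, so no sequence is printed. Alternatives changed the read minimum, the limits, the strand, the pools used for selection, the counting of clusters, the adjustment and the size required of a call. The analysis used scipy 1.17.1 and numba 0.67.0 for the tests, pandas 2.3.3 and numpy 2.4.6 for the tables and matplotlib 3.10.9 for the figures, in Python 3.11.15.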

Additional observations from a re-analysis of the deposited data

How the results depend on the processing

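No paired analysis was possible because the deposited tables sum the 6 animals of a group, and for the same reason no animal could be left out. Of the recomputed values, 145 were counted as kept, 29 moved and none reversed. Counts were kept within 1.5 times the main count and shares within 10 points. The counting interval used for medians was wide. It kept 45.65% against 53.74% in Con HPC when selected on the sGC pools, and 1.805 against 2.851 points in blood with a minimum of 95%. A kept value is thus not always a close one. The number of members was 6280 at 50 reads, 6207 at 40 to 60% in hippocampus, 3229 at 95% in blood, 16194 when selected on the sGC pools and 6922 with 1 per cluster. With 100 or more plus-strand reads, added after the data were seen, 84.2% were higher with sGC in hippocampus and 87.7% in blood, with no background at that depth. Calls higher in hippocampus were 11 at 40 to 60%, 0 at 95% in blood, 83 on the sGC pools and 0 after dividing chi-squared statistics by their inflation. That inflation over all cytosines was 1.77 in hippocampus, 1.74 in blood and 3.42 between tissues. Calls lower in hippocampus were 1 at 10 reads and 1 when adjusted over the plus strand of eligible CpGs alone. Calls higher in blood were 65, 22, 479 and 0 under the same 4 settings as in hippocampus. The single call lower in blood was lost (0) at 50 reads, at 40 to 60%, at 95%, on the sGC pools and after that division. Calls of blood above hippocampus in the sGC pools were 6158 at 50 reads, 5944 at 40 to 60%, 3061 at 95%, 15695 on the sGC pools, 6453 with 1 per cluster and 6595 after that division, and 4 members were called below hippocampus at 10 reads. The cause of these moves was not tested. With a minimum of 95% in blood, the median difference in blood was 1.805 points. The spread between animals is not known.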
